A study of Mus musculus with 2 samples.

Results

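Megalin and cubilin are the receptors by which the proximal tubule (PT) takes filtered proteins and vitamin carriers back from the urine. Gene expression of 8 genes of this uptake route was compared between isolated PT cells of wild-type mice and of PT-specific KAT5 knockout (KO) mice. The genes were chosen by name, namely Lrp2, Cubn, Amn, Dab2, Lrpap1, Fcgrt, Ocrl and Ap1b1, and all 8 were found among the 19505 genes with a symbol on the array. Both groups were labelled as male mice of 8 weeks, and each was measured on 1 Clariom S array from 64 ng of RNA. The KO mice carried a γGT-Cre transgene and floxed KAT5 alleles on a C57BL/6J background, and the γGT promoter drives Cre in PT cells. The wild-type group is given by genotype only, and the sources used here do not say how many mice each RNA came from. PT cells had been enriched by magnetic sorting, with depletion of CD31-positive cells followed by selection for Prominin1. With 1 array per genotype no error, interval or p-value can be given, and every difference below compares those 2 arrays.

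Megalin, encoded by Lrp2, is a very large receptor of the LDL receptor family on the apical membrane of PT cells. Cubilin, encoded by Cubn, has no membrane span of its own. It reaches the apical membrane bound to amnionless, encoded by Amn, and is taken up together with megalin. The chaperone RAP, encoded by Lrpap1, keeps megalin from binding ligands too early in the endoplasmic reticulum. At the membrane the adaptor Dab2 links the tail of megalin to clathrin coats. Inside the cell, the phosphoinositide phosphatase OCRL acts on coated vesicles and early endosomes, the adaptor subunit encoded by Ap1b1 sorts cargo between endosomes and the trans-Golgi network, and the receptor FcRn, encoded by Fcgrt, returns albumin and IgG from endosomes. Loss of megalin, cubilin or OCRL function in humans leads to protein in the urine.

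The promoter windows of the 4 genes with the largest differences are shown. These were the members at least 2-fold higher in the KO sample, so the choice rests on the values compared here. Each window runs from 250 bases before to 50 bases after the RefSeq gene start (build GRCm38.p6, 5′ to 3′ on the strand of the gene). Lrp2 lies at chr2:69585980-69586279 (minus strand), Cubn at chr2:13491827-13492126 (minus strand), Lrpap1 at chr5:35105650-35105949 (minus strand) and Amn at chr12:111270846-111271145 (plus strand). Capitals mark matches with at most 1 mismatch, on either strand, to CAAAGTCCA for the PT regulator HNF4. Motifs of other PT regulators are not covered.
Lrp2: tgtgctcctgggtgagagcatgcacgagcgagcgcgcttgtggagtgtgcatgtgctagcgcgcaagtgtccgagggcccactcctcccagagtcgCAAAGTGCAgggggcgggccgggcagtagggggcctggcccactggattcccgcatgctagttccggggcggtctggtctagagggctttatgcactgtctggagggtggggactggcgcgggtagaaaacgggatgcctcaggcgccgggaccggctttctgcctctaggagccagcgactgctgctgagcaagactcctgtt
Cubn: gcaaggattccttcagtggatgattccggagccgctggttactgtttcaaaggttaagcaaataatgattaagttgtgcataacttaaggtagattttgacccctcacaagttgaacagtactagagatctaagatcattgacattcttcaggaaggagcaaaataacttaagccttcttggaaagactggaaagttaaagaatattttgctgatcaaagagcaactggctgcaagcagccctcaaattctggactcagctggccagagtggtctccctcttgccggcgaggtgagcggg
Lrpap1: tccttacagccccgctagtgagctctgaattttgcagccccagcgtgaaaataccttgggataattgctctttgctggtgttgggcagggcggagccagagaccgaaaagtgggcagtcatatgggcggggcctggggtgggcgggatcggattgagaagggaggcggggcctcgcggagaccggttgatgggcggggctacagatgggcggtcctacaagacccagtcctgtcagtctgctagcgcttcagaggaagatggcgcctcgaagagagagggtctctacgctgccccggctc
Amn: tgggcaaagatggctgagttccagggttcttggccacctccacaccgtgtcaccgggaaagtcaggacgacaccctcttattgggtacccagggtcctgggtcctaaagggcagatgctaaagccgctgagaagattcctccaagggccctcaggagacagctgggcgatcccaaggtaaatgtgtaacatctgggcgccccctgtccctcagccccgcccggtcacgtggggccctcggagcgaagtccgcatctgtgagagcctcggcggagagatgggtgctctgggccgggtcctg
The Lrp2 window held 1 HNF4 match (CAAAGTGCA, centred at -150 from the start). The windows of Cubn, Lrpap1 and Amn held no match. Among the other members, Ocrl held an HNF4 match (CAAAGTCCT at -176), and the second of 2 windows of Dab2 held 1 match (CCAAGTCCA at -8). Those of Fcgrt and Ap1b1 held none. Of 32851 promoter windows in the table, 8.47% held a match at this tolerance. A match describes letters in the window, and binding was not measured.

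The arrays differed well beyond these genes. Deposited values are log2 levels, and the 11635 genes above a background level of 5.14 in either sample were counted as measured. This level is the higher, over the arrays, of the 95th percentiles of 1465 chemosensory receptor genes (odorant, pheromone, taste), assumed silent in kidney. Dimmer levels were set to it. A gene was called higher or lower at a difference of 2-fold or more, which is 1 on the log2 scale, and in the KO sample 17.8% of measured genes were higher and 15.9% were lower, 33.7% together. The median difference of all measured genes, KAT5 KO minus wild-type, was -0.05. Kat5 itself stood at 10.20 in the wild-type sample and 8.67 in the KO sample, 34.8% of the wild-type level. The labelled sex was not matched by the KO sample, where 3 genes of the Y chromosome, Eif2s3y, Uty and Kdm5d, were under the background level (2.29, 3.42 and 3.76), while they were above it in the wild-type sample (10.11, 9.84 and 7.69). The part of this mismatch in the values below was not tested, since the array and the genotype cannot be told apart.

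Of the 8 uptake genes, 4 were higher in the KO sample and 0 were lower, and their median difference was 1.70 (3.25-fold). Of all measured genes 17.8% were higher, with a median of -0.05. The receptors Lrp2 and Cubn were 101-fold and 207-fold higher, the chaperone gene Lrpap1 11.8-fold and the cubilin partner Amn 5.57-fold. Dab2, Fcgrt, Ap1b1 and Ocrl did not reach 2-fold in either direction. All 8 genes lay above the background level on both arrays and under the highest value of the table, 19.93, so none of their differences is a bound.

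Lrp2 had a level of 12.17 in the wild-type sample and 18.84 in the KO sample, a difference of 6.66. In the KO sample megalin mRNA stood 1.10 under the highest value of the table, where the arrays no longer tell levels apart. Of all measured genes, 86 (0.739%) had a larger positive difference than Lrp2. Cubn was at 9.37 in the wild-type sample and 17.07 in the KO sample, a difference of 7.70, and 41 genes (0.352%) lay beyond it. The differences of the receptor genes were 1.03 apart, or 2.05-fold.

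Amn, whose product carries cubilin to the membrane, was at 6.75 in the wild-type sample and 9.22 in the KO sample. Its difference of 2.48 was smaller than that of Cubn by 5.22, so the ratio of KO to wild-type signal of these partners was 37.2-fold apart. In the wild-type sample Amn lay 1.61 above the background level, closer than any other member. Lrpap1, whose product escorts megalin, was at 10.82 and 14.39 in the wild-type and KO samples, a difference of 3.56, which is 3.10 less than that of Lrp2. Thus each helper protein's gene was higher together with its receptor's, but by less. For Amn 680 genes (5.84%) and for Lrpap1 402 genes (3.46%) had a larger difference.

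Dab2, the clathrin adaptor of megalin, was at 16.98 in the wild-type sample and at 17.91 in the KO sample. Its difference of 0.93 (1.90-fold) lay just under the threshold, and was 5.74 less than that of Lrp2. Fcgrt had levels of 11.83 and 12.70, a difference of 0.86 (1.82-fold), and Ap1b1 levels of 10.47 and 11.26, a difference of 0.78 (1.72-fold). The adaptor and recycling genes thus lay close together, with gaps of 0.065 from Dab2 to Fcgrt and 0.079 from Fcgrt to Ap1b1. Ocrl was the one member with a negative difference, at 8.18 in the wild-type sample and 7.99 in the KO sample (-0.19), or 87.5% of the wild-type level. Among all measured genes, 18.8% had a larger difference than Dab2, 19.8% than Fcgrt, 21.6% than Ap1b1 and 56.6% than Ocrl. Further scaling moved the calls of Dab2 and Fcgrt. With each array centred on its median Dab2 reached 1.01, so that 5 members were higher, and with the trend of the difference on level removed Dab2 reached 1.43 and Fcgrt 1.12, so that 6 were.

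**Figure D1:**
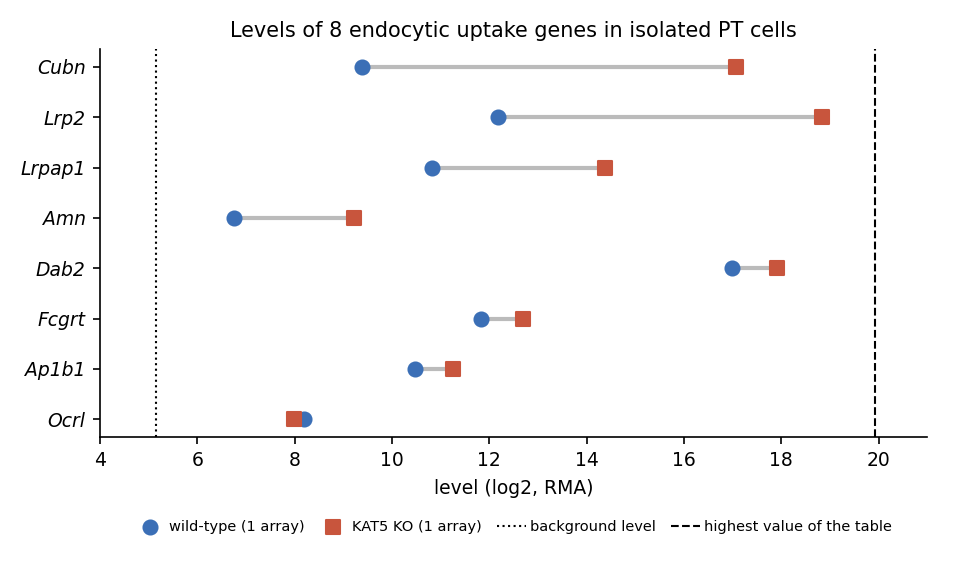
Levels of the 8 uptake genes (x axis, log2 RMA level) in the wild-type sample (circles) and the KAT5 KO array (squares), 1 array each and therefore without error bars, ordered by their difference. The long lines belong to Cubn (9.37 to 17.07) and Lrp2 (12.17 to 18.84), while the symbols of Ocrl nearly coincide, and the dotted and dashed lines mark the background level of 5.14 and the highest value of 19.93.

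The spread of the differences over all measured genes was wide, with quartiles of -0.64 and 0.64. In the plot of all differences, Dab2, Fcgrt, Ap1b1 and Ocrl lie inside or at the edge of the central bulk, and Lrp2 and Cubn lie in the far tail on the positive side. By difference alone, the genes nearest to Lrp2 were Igsf11 (6.66), Hsd3b3 (6.65) and Cyp2e1 (6.64), and those nearest to Cubn were Gsta2 (7.71), Hgd (7.71) and Slc6a20b (7.67). Hsd3b3 is a steroid dehydrogenase, Cyp2e1 a cytochrome P450, Gsta2 a glutathione transferase, Hgd an enzyme of tyrosine breakdown and Slc6a20b an amino acid transporter. Likeness here means the distance between single differences over 2 arrays, and 60 of 9770 genes lay within 0.5 of Lrp2.

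**Figure D2:**
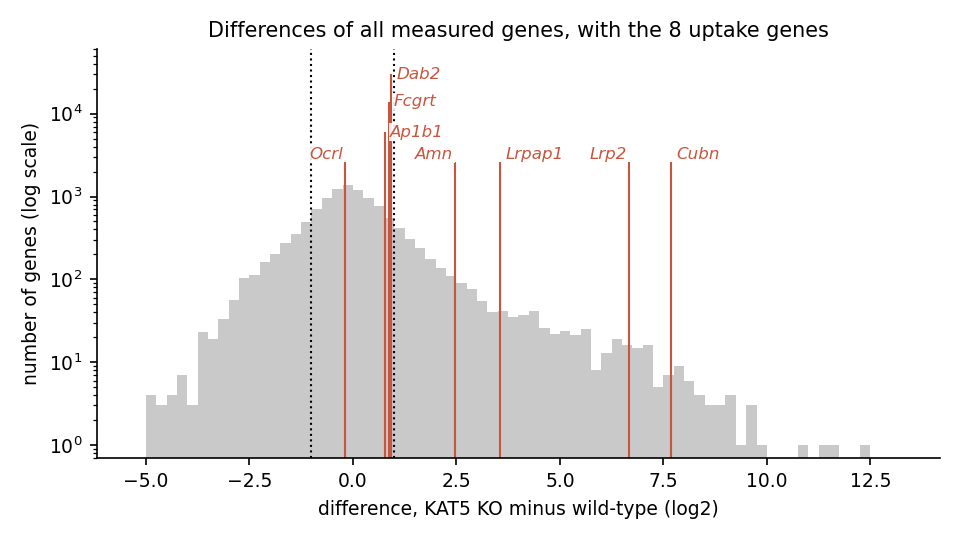
Number of genes (y axis, log scale) by difference between the KAT5 KO and the wild-type array (x axis, log2) for the 11635 measured genes, with the 8 uptake genes as labelled vertical lines and the 2-fold threshold as dotted lines. Lrp2 at 6.66 and Cubn at 7.70 stand in the tail, and the heights of the coloured lines carry no value.

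Markers of cell types moved with the same contrast, beside shares of 17.8% higher and 15.9% lower for all measured genes. Of 13 measured PT markers, none of them an uptake gene, 12 were higher in the KO sample and 1 was lower (median 6.72). Their summed level, on the linear scale, was at least 95.5 times that of the wild-type array, since Slc34a1 stood at the highest value of the table in the KO sample. The sodium-glucose cotransporter Slc5a2 differed by 7.03 and the water channel Aqp1 by 4.29. The PT markers that stood apart were Kap (-4.46), an androgen-dependent gene, and Slc7a13, which was under the background level on both arrays. Slc22a30 had the smallest positive difference of the PT markers (2.29). Of 42 measured markers in the 9 lists of other cells of the kidney, 33 were lower and 0 were higher, with list medians from -4.19 (loop of Henle) to -0.92 (podocytes). The median level of the 5 loop of Henle markers was 16.65 in the wild-type sample, above the 10.11 of the PT markers there. In the KO sample these medians were 12.46 and 17.14. Umod, a loop marker, stood at the highest value of the table in the wild-type sample, so its difference is a bound. The wild-type sample thus held high signal of other tubule segments. Among the markers of other cells, 6 of 7 macrophage markers and 4 of 6 endothelial markers were lower. All 7 macrophage markers stayed above the background level on both arrays, with a summed level 2.61 times as high in the wild-type sample. Csf1r, the receptor of a macrophage growth factor, was at 17.61 in the wild-type sample and 15.80 in the KO sample. Macrophages and endothelium are known to express Dab2 and Fcgrt, as PT cells do. In such bulk samples a smaller share of cells of a type and less RNA per cell cannot be told apart, and the part of cell composition in the differences of the uptake genes was not tested.

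Set against the median of the PT markers, Lrp2 differed by -0.056 and Cubn by 0.98, and the other 6 members by -3.16 (Lrpap1) to -6.91 (Ocrl). Of the 13 measured markers, 7 had a larger difference than Lrp2 and 4 a larger one than Cubn. The receptor genes were thus within the range of the PT markers, whereas 11 of 13 markers lay above Amn and Lrpap1, and 12 of 13 above Dab2, Fcgrt, Ap1b1 and Ocrl. Such ratios are no correction for differing shares of PT cells.

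**Figure D3:**
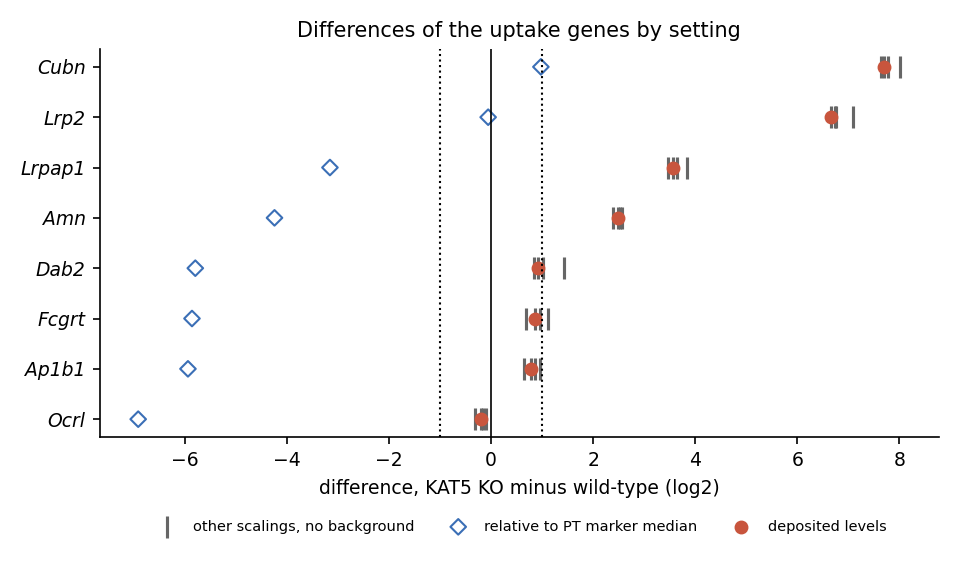
Difference of each uptake gene between the KAT5 KO and the wild-type array (x axis, log2) for the deposited levels (filled circles), for 3 other scalings of the arrays and no background level (vertical ticks), and relative to the median of 13 PT markers (open diamonds). The ticks of each gene stay near its circle, and the diamonds of Lrp2 and Cubn are the ones nearest to 0.

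The wider machinery of uptake was described through 11 lists of 214 genes in all, of which 198 were on the array by symbol and 186 were measured. Of these, 50 were higher (26.9%, against 17.8% of all measured genes) and 23 were lower (12.4%, against 15.9%), and the median was 0.091, against -0.05. Apical scaffolds, filtered ligands with vitamin handling, and endosome acidification had medians above 1, and those of coats, endosomal sorting and phosphoinositide enzymes lay near 0.

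Of 5 measured apical scaffold genes, 4 were higher (80%, against 17.8% of all measured genes) and 0 were lower (against 15.9%). The list median was 4.50. Pdzk1, a PDZ scaffold under the microvilli, was at 7.61 in the wild-type sample and 14.51 in the KO sample, 119.9-fold higher. The PDZ gene Pdzd3 was at least 25.3-fold higher, being under the background level in the wild-type sample. Myo7b, a myosin of the brush border, was 22.6-fold higher. With no background level, which brings in the dim Lrp2bp, the median of this list was 2.96.

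Of 16 measured genes of filtered ligands and vitamin handling, 9 were higher (56.25%) and 0 were lower (median 1.35). The shares of all measured genes were 17.8% and 15.9%. Tcn2, which encodes the vitamin B12 carrier transcobalamin, a ligand of megalin, was at 13.50 in the wild-type sample and 18.57 in the KO sample. The folate receptor gene Folr1 was at 9.28 and 15.47, a difference of 6.19. The plasma proteins transthyretin and albumin are themselves filtered ligands, and their genes Ttr and Alb were higher by 6.60 and 5.40. B2m, which encodes the light chain shared by FcRn and MHC class I molecules, was at 19.76 and 19.39, close to the highest value of the table, and differed by -0.37, a direction that turned with the trend on level removed (0.22).

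Of 21 measured genes of endosome acidification, 11 were higher (52.4%, against 17.8% of all measured genes) and 1 was lower (4.76%, against 15.9%). The list median was 1.06. Clcn5, which encodes the endosomal chloride-proton exchanger lost in Dent disease, was at 10.35 in the wild-type sample and 12.89 in the KO sample, a difference of 2.54. The apical sodium-proton exchanger Slc9a3 differed by 2.14, and the proton pump subunits Atp6v0a4 and Atp6v1b2 by 3.30 and 2.43. The endosomal exchanger Slc9a9 was lower, from 13.53 to 11.62. Under quantile normalization the median of this list was 0.90.

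Of 25 measured genes of the clathrin coat and vesicle scission, 2 were higher, 3 were lower and 20 lay between (median 0.049), where 33.7% of all measured genes were called in either direction. The clathrin light chain gene Cltb differed by 2.43 and the AP-2 subunit gene Ap2a2 by 1.66. Lower were Hip1 (-1.72) and Hip1r (-1.02), which link coats to actin, and Dnm2 (-1.10), the dynamin that cuts vesicles off. Hip1r did not reach 2-fold with the arrays centred (-0.93) or the trend on level removed (-0.96), nor did Dnm2 with the trend removed (-0.72). Of 12 measured partners of the adaptor complex that holds the Ap1b1 product, 1 was higher, 2 were lower and 9 lay between (median -0.15). These shares are 8.3% higher and 16.7% lower, against 17.8% and 15.9% of all measured genes. In that complex the subunit gene Ap1g1 was higher by 1.43, and Ap1m1 differed by 0.97 (1.06 with the arrays centred). The subunit gene Ap1s3 was lower by at least 2.21-fold, a call lost with the higher background levels (-0.39 and -0.69). The Golgi adaptor gene Gga3 differed by -1.71.

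Of 30 measured genes of early and recycling endosomes, 6 were higher (20.0%) and 4 were lower (13.3%), near the shares of all measured genes (17.8% and 15.9%), with a median of -0.044. The largest positive differences belonged to Rab11fip3 (4.27), an effector of recycling, Myo6 (3.48), the myosin that moves coated vesicles inward, and Rab4a (2.35), a GTPase of rapid recycling. Ehd4 (-2.36), Rab11fip1 (-1.58) and Rabgef1 (-1.16) were lowest. Of 29 measured genes of the retromer, retriever, CCC and WASH recycling complexes, 6 were higher (20.7%) and 2 were lower (6.9%), with a median of -0.0042. Vps29, a subunit of retromer and retriever, was higher by 2.77, Snx6 by 1.64 and Commd3 by 1.61, whereas Snx5 (-1.94) and Washc4 (-1.03) were lower, Washc4 not with the arrays centred (-0.94) or the trend removed (-0.88). Snx17, which binds the tails of LDL receptor family members, had a difference of -0.996 (1.99-fold) and was not called, but reached -1.18 under quantile normalization. Of 18 measured phosphoinositide enzymes and OCRL partners, 2 were higher (11.1%), 2 were lower (11.1%) and 14 lay between (median -0.14). Pi4ka (1.63) and Pikfyve (1.13) make phosphoinositides and were higher, and Synj1 (-1.32), a phosphatase, and Pik3c3 (-1.24), a kinase, were lower.

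Of 10 measured genes of the LDL receptor family other than Lrp2, 3 were higher (30%) and 1 was lower (10%). The shares of all measured genes were 17.8% and 15.9%, and the list median was 0.26. Vldlr differed by 2.29, Lrp3 by 1.26 and Lrp4 by at least 3.17-fold, and Lrp1, a relative of megalin found in many cell types, was lower (10.17 in the wild-type sample and 8.83 in the KO sample). Of 12 measured endocytic and scavenger receptors outside the family, 2 were higher (16.7%) and 5 were lower (41.7%), with a median of -0.57. The share higher was thus near that of all measured genes (17.8%), and the share lower was above it (15.9%). Igf2r, the receptor for lysosomal enzymes and IGF2, was higher by 3.09, and Msr1 by 1.07. The scavenger receptors Cd36 (-2.64) and Scarb1 (-1.82) and the sorting receptor Sort1 (-2.01) were lower.

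**Figure D4:**
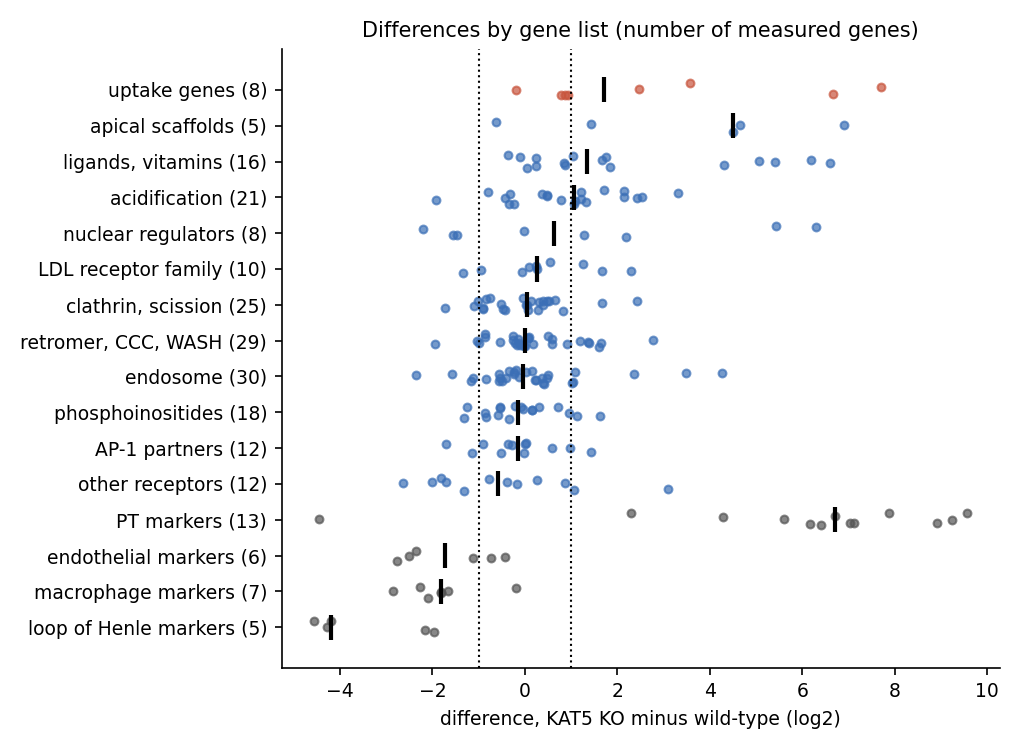
Difference between the KAT5 KO and the wild-type array (x axis, log2) of each measured gene, by list, with the number of measured genes in brackets, the list's median as a black bar and the 2-fold threshold as dotted lines. Uptake genes spread from -0.19 to 7.70, scaffolds and PT markers have the medians furthest to the right (4.50 and 6.72), and markers of endothelium, macrophages and the loop of Henle lie to the left.

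Of 8 measured nuclear regulators of PT and endolysosomal genes, 4 were higher (50%) and 3 were lower (37.5%), with a median of 0.63. The shares of all measured genes were 17.8% and 15.9%. Hnf4a, a factor of PT identity, was at 7.87 in the wild-type sample and 14.17 in the KO sample (6.30), and Ppara, which drives fatty acid use, at 5.68 and 11.11 (5.43). Hnf4g was higher by at least 4.59-fold. Pparg (-2.21) and the lysosomal regulators Mitf (-1.55) and Tfe3 (-1.47) were lower. HNF4 matches with at most 1 mismatch lay in windows of Lrp2, Ocrl and Dab2, and in none of the other members. Of all promoter windows, 8.47% held such a match. A part of Hnf4a in the differences of the uptake genes was not tested.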

How the data were processed

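The deposited log2 levels were made by the authors with RMA (Transcriptome Analysis Console, per the labels) from Clariom S mouse arrays, with versions not given in the sources used here. RMA subtracts background, scales the arrays to each other and summarises probes, so a change in most highly expressed genes could shift the others. Of 28846 probe sets, 19572 had the platform's symbol for 1 gene, 0 had several and 9274 had none. Each uptake gene had 1 probe set. For the 55 genes with several, levels were averaged. List symbols were matched through gene numbers and RefSeq synonyms, by which 1 was renamed. List genes without a match are not analysed here.

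Differences are KO minus wild-type, and calls rested on size alone. The genes, lists and partners named were chosen with earlier results of these data known. Within each list, up to 3 called genes in each direction were named, from the largest, beside fixed partners of the uptake genes. Alternatives were 3 scalings (median centring, quantile, loess with span 0.3), 3 background settings, the brightest probe set, thresholds of 1.5-fold and 3-fold, and the PT marker median as reference. The steps were run on simulated arrays with planted differences and little noise, which checks the code and not the noise of the real arrays. Before dim levels were raised, the chemosensory receptor genes differed between the real arrays with a standard deviation of 0.55. Of these genes, 7.71% differed by 2-fold or more. The number of arrays limits the precision. Python 3.11.15, numpy 2.4.6, pandas 2.3.3, statsmodels 0.14.6 and matplotlib 3.10.9 were used.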

Additional observations from a re-analysis of the deposited data

How the results depend on the processing

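Directions of all 8 uptake genes held under each scaling of the arrays and each background setting, with Lrp2 between 6.66 and 7.09, Cubn between 7.64 and 8.02, Lrpap1 between 3.46 and 3.85, Amn between 2.39 and 2.57, and Ocrl between -0.31 and -0.10. At a threshold of 1.5-fold 7 of 8 members were higher and 0 lower, against 3101 higher and 3130 lower of 11635 measured genes. At 3-fold 4 members were higher and 0 lower, against 1245 higher and 917 lower of all measured genes. At 2-fold all measured genes gave 2067 higher and 1852 lower. Relative to the PT marker median, which was 6.72, every difference is smaller by that value. There 0 members were higher and 6 lower, the members' median was -5.02 in place of 1.70, Lrp2 stood at -0.056, Lrpap1 at -3.16 and Amn at -4.24, Cubn stayed positive at 0.98, and 39 genes were higher and 11494 lower in all. A replicate could not be left out, and no paired analysis was possible because each genotype had 1 array. Dim genes are limited by the background level, as for Hnf4g (2.20, or 1.44 with the 99th percentile) and Lrp4 (1.66, or 0.91 with the 99th percentile) and Lrp3 (1.26, or 0.77). Under quantile normalization Msr1 (0.93) and Pikfyve (0.99) did not reach 2-fold.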

Other observations

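The genes in this section were chosen after their values were seen. Megalin takes up the vitamin D binding protein, and PT cells turn its cargo into the active hormone. Cyp27b1, the activating enzyme, was at 3.86 in the wild-type sample, under the background level, and at 6.89 in the KO sample, at least 3.36-fold higher. Cyp24a1, which breaks the hormone down, was at 6.31 and 10.63, a difference of 4.31, and Vdr, its receptor, was at 11.23 and 12.10, a difference of 0.87 that did not reach 2-fold. For vitamin B12, the lysosomal transporter gene Abcd4 was higher by 1.66 and Mmachc, which processes the vitamin, by 1.04, while Cd320, the receptor for transcobalamin, differed by 0.85 and the transporter partner Lmbrd1 by -0.11.

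Selenop, which encodes a selenium carrier bound by megalin and its relatives, was at 19.23 in the wild-type sample and 19.47 in the KO sample, near the highest value of the table. Rbp4, which encodes the retinol carrier of plasma, was under the background level on both arrays (4.79 and 4.82). So was Havcr1, the marker of tubule injury that also acts as a scavenger receptor (3.13 and 4.60). No difference between the arrays can be read for these genes. By RT-PCR the paper reports elevated KIM-1 (Havcr1) in the kidney cortex of KO mice, whereas isolated PT cells were measured here.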
